A study of Arabidopsis thaliana with 4 samples.

Results

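In the platform annotation, 6 of the 22810 probe sets on the Affymetrix ATH1 arrays of this study were named as WRKY genes, each for a different gene. A probe set was counted as a member where its single annotated gene symbol was WRKY followed by a number, with or without an AT prefix. The members were WRKY6 (AT1G62300, probe set 264746_at), WRKY20 (AT4G26640, 253983_at), WRKY22 (AT4G01250, 255568_at), WRKY42 (AT4G04450, 255337_at), WRKY47 (AT4G01720, 255596_at) and WRKY53 (AT4G23810, 254231_at). The annotation gave a single gene for 13513 probe sets, and members could be found only among these. RefSeq lists 72 WRKY genes for Arabidopsis by symbol or synonym, so most of the family was not analysed here. The 6 members, 5 of them on chromosome 4, are those the annotation names and not all WRKY probe sets of the arrays. A seventh WRKY gene, ZAP1 (AT2G04880, 263626_at), which RefSeq also calls WRKY1, falls outside the symbol rule and is described separately.

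The arrays measured transcript levels in discs cut from source leaves of wild-type Arabidopsis thaliana, accession Col-0. The leaves were full grown, came from non-flowering plants and were taken at the end of the night. During an incubation of 1 h in darkness they lay in MES buffer, either without an addition (control) or with 5 mM dithiothreitol (DTT), a small reductant of disulfide bonds. Each group had 2 arrays, described by the submitters as biological replicates and named here control 1, control 2, DTT 1 and DTT 2. All groups had been cut and incubated, and no uncut leaf was part of the comparison, so a response to cutting that both groups share cannot be seen.

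WRKY proteins are plant transcription factors named after a conserved stretch of amino acids in their DNA-binding domain, which is folded around a zinc ion held by cysteine and histidine residues. They bind W-box elements in promoters, many of them in genes of defence, wounding and leaf senescence, and several WRKY genes are themselves induced quickly by wounding and by microbial elicitors. WRKY20 belongs to the group with a pair of WRKY domains. WRKY6, WRKY42 and WRKY47 belong to subgroup IIb, WRKY22 to subgroup IIe and WRKY53 to group III.

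The value per probe set was a MAS5 signal, a linear intensity. On each of the 4 arrays its mean after trimming was 100, and its median lay between 25.4 and 32.8. The arrays separated by replicate number: the hybridization control transcripts, added to each labelled sample in a set amount, had, over 18 probe sets, a median ratio of number 1 to number 2 of 1.88 in the controls and 1.69 with DTT, against 0.969 and 1.06 for DTT over control within numbers 1 and 2. Changes are therefore given within each number as well as over all arrays. Of 25 tissue marker genes listed, 2 had a probe set annotated to that gene alone, and only these were looked up. RCA, the Rubisco activase of photosynthetic cells, had signals of 4077.4 and 2751.6 in the controls and 3808.7 and 2999.4 with DTT. FMA, a guard cell transcription factor, had 31.4 and 23.8 in the controls and 26.0 and 31.6 with DTT. Neither marker separated the groups. In whole discs, fewer cells of a type and less RNA per cell cannot be told apart.

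WRKY53 had the largest mean change with DTT among the 5 tested members, a higher signal in both replicate numbers by nearly the same factor. None of the other members had groups that did not overlap. Changes in opposite directions in the 2 numbers were seen for 4 of these members and for 48.3% of all probe sets tested. No member passed the test across all probe sets. The test was run on probe sets whose mean log2 signal reached the 40th percentile, a signal of 16.9, which 13648 probe sets and 5 of the 6 members did. Without a block, limma called 0 of 13648 (0.0%) at the threshold of 0.05 for the adjusted p. The unadjusted p was under 0.05 for 95 (0.696%), of which 0 were members. Where nothing changes, a share of 0.05 is due under that level, so this fit gave fewer small p-values than its level allows. Its residual holds the difference between replicate numbers, and a large p from it does not show that a transcript was unchanged. With the replicate number as a block, limma called 126, or 0.923%, of which 0 were members.

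WRKY53 is a regulator of leaf senescence in Arabidopsis whose transcript also rises early after elicitors and hydrogen peroxide. Its signal was 150.5 on control 1 and 89.2 on control 2, and 253.5 on DTT 1 and 151.5 on DTT 2. Both DTT arrays lay above both control arrays, although the lower DTT array exceeded the higher control array by a small margin. This was so for 1 of the 5 tested members and for 8.01% of all probe sets tested. Both DTT arrays lay below both controls for 0 of the 5 and for 9.81% of all. The group means were 120 ± 43.3 in controls and 202 ± 72.1 with DTT (SD, n = 2). Within replicate numbers the signal was 1.68-fold higher in number 1 and 1.70-fold higher in number 2.

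The spread between the replicate numbers of WRKY53 was about as large as the difference with DTT. Control 1 was 1.69-fold above control 2, and DTT 1 was 1.67-fold above DTT 2. Over all 4 arrays the mean log2 change was 0.76 (SE 0.45, 95% interval -0.36 to 1.87, limma adjusted p = 0.9999 without a block). With the replicate block the log2 change was the same, with an SE of 0.23 and an interval of 0.28 to 1.24, and the limma adjusted p was 0.167. The unadjusted p in that fit was 0.0032, and 8.0% of all probe sets tested had one under 0.05. The SEs and intervals of both fits draw on the variances of other probe sets, so they are not the spread of WRKY53 alone. Leaving out an array unbalances the replicate numbers, and the log2 change was then 1.14 when control 1 was dropped, 1.13 when DTT 2 was, 0.39 when DTT 1 was and 0.38 when control 2 was. An exact permutation test of the 4 arrays gave p = 0.333 (two-sided), the smallest that 2 arrays per group allow.

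The changes of WRKY53 in both numbers differed by 0.01 on the log2 scale, against a median difference of 0.34 over all probe sets tested. A rise of at least 1.5-fold in both numbers, a level chosen after the signals had been seen, was found for 103 of 13648 probe sets (0.755%), WRKY53 among them. Its mean log2 change was reached or exceeded by 114 probe sets (0.835%), counting WRKY53 itself. These shares place WRKY53 among the probe sets and are not tests.

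**Figure D1:**
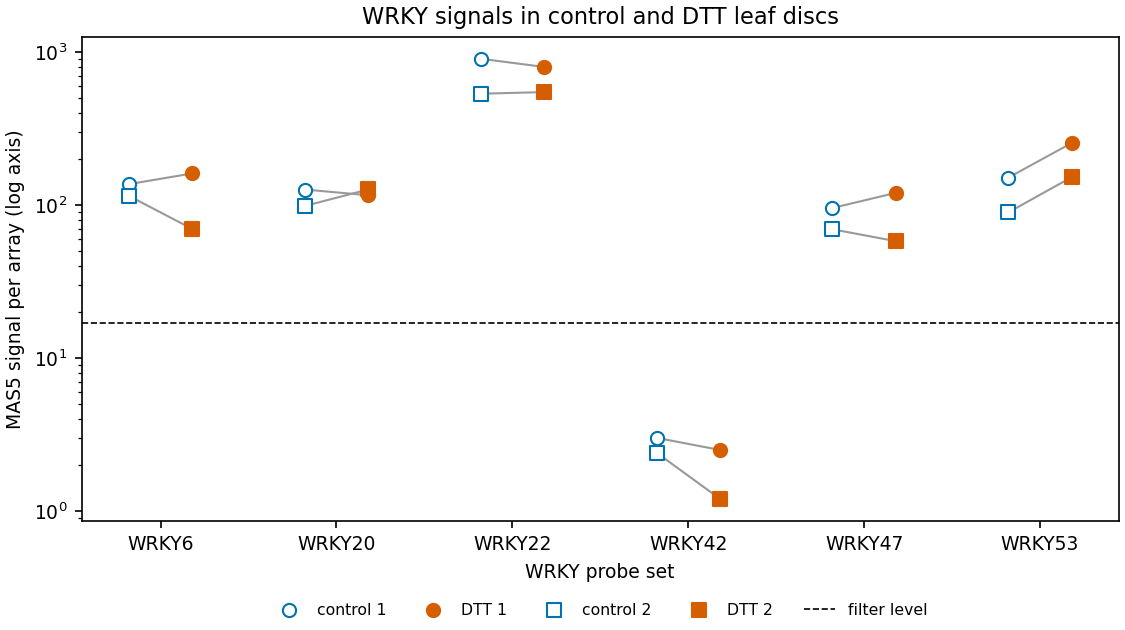
MAS5 signals of the 6 WRKY probe sets on a log axis, with open blue symbols for control and filled orange symbols for DTT, circles for replicate number 1 and squares for number 2, and lines joining arrays of the same number. WRKY53 lies higher with DTT in both numbers, from 150.5 to 253.5 and from 89.2 to 151.5, and WRKY42 lies below the dashed filter level of 16.9 on all arrays. Signals of different probe sets depend on their probes and are not compared with each other.

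WRKY22 acts downstream of the mitogen-activated protein kinase cascade that responds to bacterial flagellin, and takes part in senescence in the dark. Its signal was 901 on control 1 and 532.4 on control 2, and 796.6 on DTT 1 and 545.3 on DTT 2. The groups overlapped fully, with both DTT arrays inside the range of the controls. The group means were 717 ± 261 in controls and 671 ± 178 with DTT (SD, n = 2). The log2 change was -0.18 in number 1 and 0.03 in number 2, with a mean of -0.07 (SE 0.40, 95% interval -1.07 to 0.93, limma adjusted p = 0.9999). The block interval was narrower, at -0.50 to 0.36 (limma adjusted p = 0.996). The sign of this small mean turned when each array was scaled to one median, to 0.017. Replicate numbers differed more than treatments, with control 1 at 1.69-fold of control 2 and DTT 1 at 1.46-fold of DTT 2.

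WRKY6 takes part in senescence and defence and represses the phosphate exporter gene PHO1. Its signal was 136.5 on control 1 and 114.4 on control 2, and 160.3 on DTT 1 and 69.6 on DTT 2. The DTT arrays were the highest and the lowest of the 4, on either side of the controls. The group means were 125 ± 15.6 in controls and 115 ± 64.1 with DTT (SD, n = 2). With DTT the signal was 1.17-fold higher in number 1 and 1.64-fold lower in number 2. The mean log2 change was -0.24 (SE 0.48, 95% interval -1.45 to 0.97, limma adjusted p = 0.9999), and the block gave an interval of -0.76 to 0.28 (limma adjusted p = 0.955).

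WRKY47, of the same subgroup, had a signal of 95.3 on control 1 and 69.2 on control 2, and of 119.7 on DTT 1 and 57.9 on DTT 2. As for WRKY6, the DTT arrays lay on either side of the controls. The group means were 82.2 ± 18.5 in controls and 88.8 ± 43.7 with DTT (SD, n = 2). The log2 change was 0.33 in number 1 and -0.26 in number 2, with a mean of 0.04 (SE 0.46, 95% interval -1.12 to 1.19, limma adjusted p = 0.9999). With the block the interval was -0.47 to 0.54 (limma adjusted p = 0.997).

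WRKY42, the remaining IIb member, also acts on phosphate transport genes. Its signal was 3 on control 1 and 2.4 on control 2, and 2.5 on DTT 1 and 1.2 on DTT 2. All 4 arrays lay below the filter level, so it was not tested and no fold change is given. Without detection calls, whether the transcript was present cannot be read from these signals.

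Of the tested members, WRKY6 and WRKY47, both of subgroup IIb, were the ones with DTT 1 above and DTT 2 below the controls. WRKY42, the IIb member not tested, had DTT 1 between its controls, at signals below the filter level. DTT 1 was 2.30-fold above DTT 2 for WRKY6 and 2.07-fold for WRKY47, while the controls differed by 1.19-fold and 1.38-fold. At least 2-fold differences between DTT arrays in that direction were found for 12.9% of all probe sets tested. A change up in number 1 and down in number 2 was found for 21.9%. Both patterns were picked after the signals had been seen, and many probe sets outside the family had them. How many probe sets had DTT 1 above and DTT 2 below both controls was not counted.

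WRKY20, the member with a pair of WRKY domains, had a signal of 125.9 on control 1 and 98.2 on control 2, and of 115.5 on DTT 1 and 126 on DTT 2. The groups overlapped, with the highest DTT and the highest control array nearly equal. The group means were 112 ± 19.6 in controls and 121 ± 7.42 with DTT (SD, n = 2). The log2 change was -0.12 in number 1 and 0.36 in number 2, with a mean of 0.12 (SE 0.33, 95% interval -0.71 to 0.94, limma adjusted p = 0.9999). With the block the interval was -0.38 to 0.61 (limma adjusted p = 0.987).

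**Figure D2:**
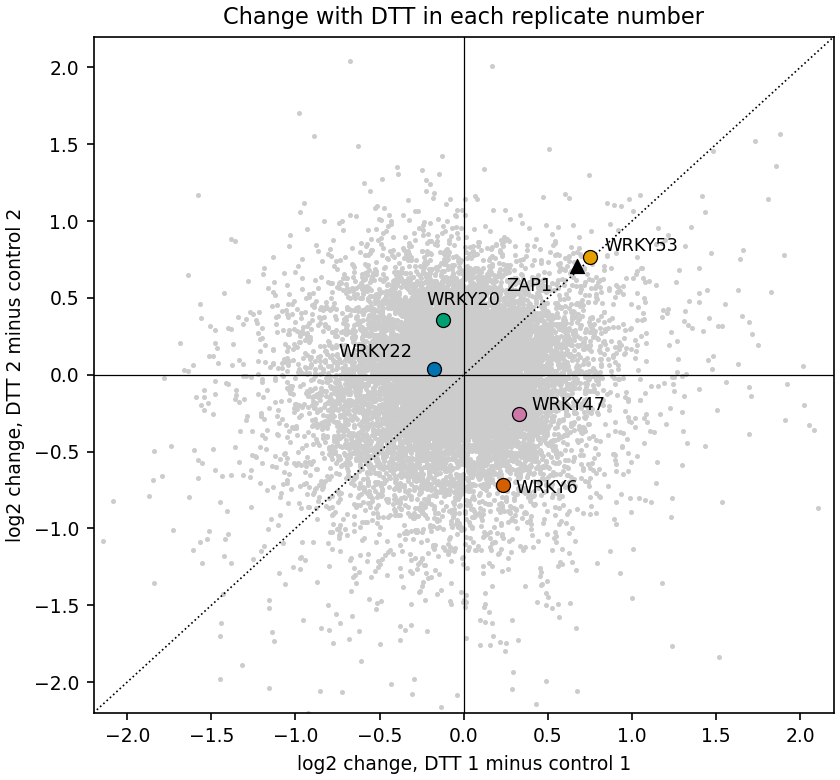
Log2 change with DTT in replicate number 1 (horizontal axis) against number 2 (vertical axis) for all 13648 probe sets tested (grey), the 5 tested WRKY members (coloured circles) and ZAP1 (black triangle), with the dotted line marking equal changes. WRKY53 and ZAP1 lie on that line at upper right, and the other 4 members lie in the quadrants of opposite directions; probe sets beyond 2.2 on either axis are not drawn.

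As a family the 5 tested members did not move one way. Their median log2 change was 0.04, against -0.01 over all probe sets tested. The median was 0.23 in number 1, where 3 members were higher and 2 lower, and 0.03 in number 2, where 3 were again higher and 2 lower. The median over the arrays left became 0.30 when control 1 was dropped, 0.36 when DTT 2 was, -0.20 when control 2 was and -0.34 when DTT 1 was. Among the tested members only WRKY53 was higher in both numbers. ZAP1, the WRKY gene outside the symbol rule, was also higher in both and is not part of these counts and medians. Opposite directions in the 2 numbers were seen for 4 of the 5 members and for 48.3% of all probe sets tested. The difference between numbers had a median of 0.48 on the log2 scale over the members and 0.34 over all probe sets tested.

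The members also differed between replicate numbers. For WRKY6, WRKY22 and WRKY47, 3 of the 5 tested, both arrays of number 1 lay above both arrays of number 2, as for 39.6% of all probe sets tested. The median log2 difference was 0.46 between control 1 and control 2 and 0.74 between DTT 1 and DTT 2 over the members, against 0.14 and 0.10 over all probe sets tested. The hybridization controls moved the same way with replicate number; their part in these differences was not tested.

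The change of WRKY53 was set against that of the other 4 tested members in 4 pairwise comparisons. It exceeded theirs in both numbers in all 4, by between 0.42 and 0.93 on the log2 scale in number 1 and by between 0.40 and 1.48 in number 2. Over WRKY6 the excess was 0.52 in number 1 and 1.48 in number 2. The mean excess was 0.83 over WRKY22, 0.72 over WRKY47 and 0.64 over WRKY20. In an exact permutation test of the per-array log ratios each comparison gave p = 0.333 (two-sided), the smallest possible with 2 arrays per group, and 0.333 after adjustment over the 4 pairs. The pairs were chosen after the change of WRKY53 was known, and all of them share its values. That change was the largest among the tested members in each number, so the excess in all pairs restates this ranking.

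**Figure D3:**
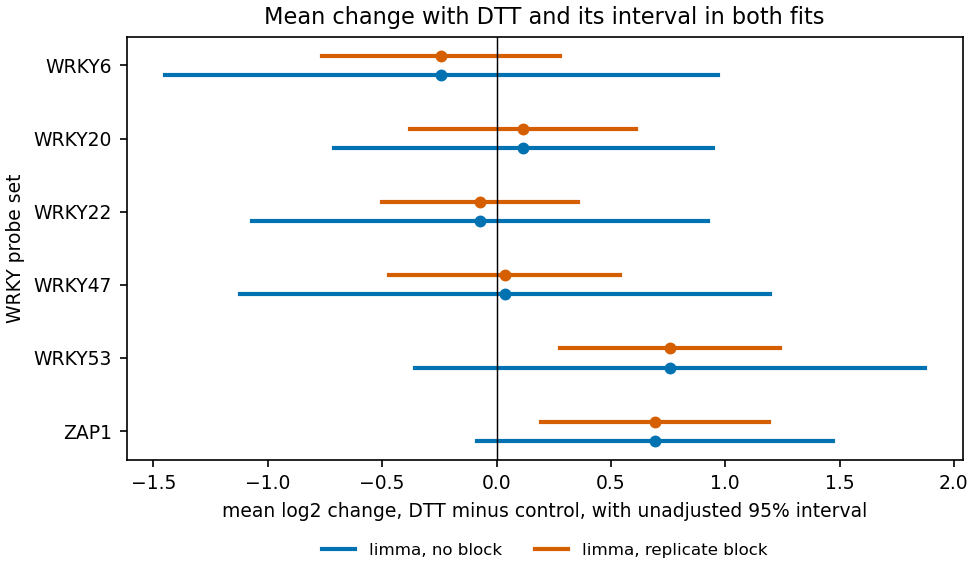
Mean log2 change with DTT for the 5 tested WRKY members and ZAP1, with unadjusted 95% intervals from limma without a block (blue) and with the replicate number as a block (orange). Without the block all 6 intervals include 0, and with it those of WRKY53 (0.28 to 1.24) and ZAP1 (0.19 to 1.19) do not, although neither passed the adjusted test.

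ZAP1 encodes WRKY1, a WRKY protein with a pair of WRKY domains. Its signal was 54.3 on control 1 and 56.5 on control 2, and 86.7 on DTT 1 and 92.3 on DTT 2. Both DTT arrays lay clearly above both controls, and the replicate numbers were close to each other in each group. The group means were 55.4 ± 1.56 in controls and 89.5 ± 3.96 with DTT (SD, n = 2). The signal was 1.60-fold higher with DTT in number 1 and 1.63-fold higher in number 2, and the mean log2 change was 0.69 (SE 0.31, 95% interval -0.09 to 1.47, limma adjusted p = 0.9999). With the block the SE was 0.24 and the limma adjusted p was 0.283, so ZAP1 did not pass the test in either fit. Its exact permutation p was 0.333, again the smallest possible.

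Genes that work with WRKY factors were looked up only where a probe set was annotated to that gene alone, so most could not be described. The 6 lists (VQ-motif partners, the mitogen-activated protein kinase cascade, salicylic acid, defence targets and early elicitor genes, senescence and jasmonate) held 64 genes. Such a probe set was found for 7 of them, and 6 were tested. With the block 0 were called higher and 0 lower, and without it 0 were called. In the list of defence targets, 3 of 13 genes had such a probe set. Both DTT arrays lay above both controls for all 3, against 8.01% of all probe sets tested. The list was written with changes of genes in it already known, so this count was not independent of the data and is not a test. PUB24, a ubiquitin ligase that dampens immune responses, had 119.7 and 91.7 in the controls and 188.8 and 152.6 with DTT, a log2 change of 0.70 (limma adjusted p = 0.251 with the block). STZ, a zinc finger repressor of stress responses, had 1572.3 and 1400.7 in the controls and 2673.4 and 1754.1 with DTT, a log2 change of 0.55 (limma adjusted p = 0.268 with the block). PUB24 and STZ, like WRKY53, had higher signals in both numbers, and they share its arrays. How many of all probe sets were higher in both numbers was not counted, and a link to WRKY53 was not tested. The rise of STZ was less even, 1.70-fold in number 1 and 1.25-fold in number 2. The third gene, PUB23, rose 1.71-fold in number 1 and 1.03-fold in number 2.

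For the remaining lists few genes had a probe set annotated to them alone. IKU1, a VQ-motif partner of a seed WRKY factor, had 60.5 and 50.9 in the controls and 67.4 and 32 with DTT, with overlapping groups. SAG101, which acts in salicylic acid signalling, had 385.6 and 280 in the controls and 400.5 and 211.5 with DTT, also overlapping. The jasmonate-responsive defensin gene PDF1.2 had 5.1 and 311.3 in the controls and 0.9 and 361.3 with DTT, so replicate number and not treatment separated its arrays. SAG29, a senescence-associated sugar transporter gene, had 22.1 and 2.2 in the controls and 3.5 and 3.6 with DTT, with 3 of the 4 arrays below the filter level, and was not tested.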

How the data were processed

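Total RNA of leaf discs was hybridized to Affymetrix ATH1 arrays, 4 in all. The authors deposited 1 linear intensity per probe set and array. Per the submitters' processing notes MAS5 made these signals. Its version, its settings and any detection calls were not given. The mean after trimming 2% at each end was 100 on every array, so the deposited values had been scaled, and a change of total mRNA cannot be seen.

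Sample titles gave the groups and replicate numbers. Log2 was taken after signals of 0 had been raised to 0.1, the lowest positive signal. The 64 Affymetrix control probe sets were left out of tests. Of the other 22746, those under the 40th percentile of mean log2 signal (4.08) were left out, leaving 13648. Tests used lmFit and eBayes with a variance trend (limma 3.58.1, R 4.3.3), DTT minus control, with Benjamini-Hochberg adjustment over all probe sets tested and a threshold of 0.05. The fit without a block is the main one. The fit with replicate number as a block leaves 1 residual degree of freedom. All SEs and intervals given are those moderated by eBayes. They draw on the variances of other probe sets besides the probe set's own, most of all in the block fit. The fits were run on simulated data with planted changes, where only the mean estimated change was checked against the planted one. Nothing about false calls or p-values is taken from that check. Gene symbols came from the platform annotation and locus names from RefSeq (TAIR10.1, names only); 13513 probe sets had 1 gene. Plots were made with matplotlib 3.10.9 under Python 3.11.15.

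The members, gene lists and naming rule (all WRKY members, and genes past the test or the 2 of smallest p per list) were chosen with earlier results of these data known. The levels of 1.5-fold and 2-fold and the description of ZAP1 and PUB23 were chosen after the signals were seen. The alternatives were the replicate block, quantile normalization, one median per array, log2(signal + 16) and log2(signal + 64), a filter at the 60th percentile or none, eBayes made robust or run without the trend, a table limited to _at probe sets with no suffix, pairs of the block with the other choices except the last, and each array left out in turn.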

Additional observations from a re-analysis of the deposited data

How the results depend on the processing

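Precision is limited by the 2 arrays in each group, and no member of the WRKY family was called by limma under any alternative run. Without a block the count of all probe sets called was 0 under each alternative with 4 arrays, and from 0 to 3 when single arrays were left out (3 without DTT 1). With the replicate block it was 126, and it was 51 with quantile normalization, 3 with one median per array, 42 with log2(signal + 16), 137 with log2(signal + 64), 3 with no filter, 176 with the 60th percentile filter, 35 without the variance trend and 105 with robust eBayes; the cause was not tested. Nothing in the labels ties equal numbers to one batch. Across probe sets tested, the difference between control 1 and control 2 correlated at 0.746 with that between DTT 1 and DTT 2. WRKY53 stayed higher with DTT under every alternative, with log2 changes from 0.53 to 0.85 on 4 arrays and from 0.38 to 1.14 without single arrays. Its adjusted p lay between 0.0947 and 0.703 with the block and above that without it. ZAP1 ranged from 0.36 to 0.78 on 4 arrays, with adjusted p from 0.210 to 0.828 with the block. One median per array turned WRKY22 to 0.017, with or without the block, and moved the median of all probe sets tested to 0.08. Without one array the replicate numbers are no longer balanced. The median of the members then ranged from -0.34 to 0.36, WRKY6 from -0.84 to 0.36, WRKY20 from -0.062 to 0.30, WRKY22 from -0.45 to 0.31 and WRKY47 from -0.49 to 0.56.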
